A study of Mus musculus with 22 samples.

Results

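The colon was compared with the ileum in 24-month-old SIRT1 iKO mice, over 8 of the 22 arrays of the series. The 4 colon and the 4 ileum arrays were taken by their sample titles, and no measured value was used to choose them. All mice of the series were male C57BL/6 mice on a chow diet with no special treatment, and total RNA came from the tissue with no cell isolation named. SIRT1 iKO is the genotype as labelled. The labels do not spell out the abbreviation, the part of Sirt1 that was deleted, the cells in which it was deleted, or whether a colon and an ileum came from the same mouse. A matched comparison used the Flox control mice of the same age, with 3 ileum and 3 colon arrays. The other 8 arrays hold ileum of mice aged 6 to 8 weeks (4 Flox control, 4 SIRT1 iKO) and enter only where stated.

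The ileum is the last stretch of the small intestine. It finishes the digestion and uptake of nutrients on a brush border of villi, recovers bile acids through its own transporters, and holds Paneth cells, which secrete antimicrobial peptides into the crypts. The colon has no villi and absorbs mainly water, salt and the short-chain fatty acids that bacteria make, under a thick mucus layer. Position along the gut is marked by homeobox genes, with the highest-numbered Hox genes expressed towards the tail end. Sirt1 encodes an NAD-dependent protein deacetylase.

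Each array carries 45018 spots read in 1 colour, and a level is given here as log2 of the processed spot intensity minus the 75th percentile of that array, so that 0 is the brightness of the spot at that percentile. A difference is always colon minus ileum on this log2 scale. Between 49.8% and 61.5% of the spots of an iKO ileum array were well above background, against 73.8% to 75.5% on an iKO colon array. All ileum arrays lay on slides 1 to 4 of one scan day and all colon arrays on slides 5 to 8 of another, so tissue and array run cannot be told apart. The lowest level that counted as well above background was -3.27 to -5.03 on the iKO ileum arrays and -6.20 to -6.43 on the iKO colon arrays. A fold against a tissue in which the probe was not well above background on any array is therefore written as "at least", with that lowest level in the place of the missing one. No fold is given where only some arrays of the dimmer tissue were above background, since the difference then rests in part on levels that were not measured. In whole tissue, fewer cells of a type and less RNA per cell cannot be told apart.

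Sirt1 itself was read at 0.35, 0.39, 0.38 and 0.45 in the iKO ileum and at 0.47, 0.67, 0.71 and 0.41 in the iKO colon (arrays 1 to 4 in each, an order kept throughout). The Flox control values were 0.67, 1.16 and 0.85 in the ileum and 0.85, 0.86 and 0.83 in the colon. Every iKO value lay below the lowest control value of its tissue. The difference between the iKO tissues was 0.17 ± 0.11 (SE, adjusted p = 0.213 in limma with Benjamini-Hochberg adjustment, as are all adjusted p-values here), and the tissues overlapped. Where the 2 Sirt1 probes lie relative to the deletion is not stated in the labels, so these levels do not check the labels.

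Some arrays stood apart from their group. Ileum iKO array 2 read some colon genes at levels near those of the colon. Among genes at least 2 log2 apart between the tissues without that array, 74 of 437 that were higher in the colon, and 36 of 482 that were lower, were nearer the colon mean on it. On the other 3 iKO ileum arrays these counts were 6 to 16 and 6 to 17. Ileum Flox array 1 did so for 122 of 434 and 77 of 571 genes. Colon iKO array 4 was nearer the ileum for 33 of 406 genes that were lower in the ileum and 10 of 433 that were higher. On the other 3 iKO colon arrays these counts were 14 to 26 and 11 to 20, so by them array 4 stood little apart. Array 4 also read the pancreatic enzyme genes Cela3b (an elastase) at 4.05 and Cpa1 (a carboxypeptidase) at 3.63. The other colon arrays read both at -2.13 or less. Several of the differences below that lean on the iKO arrays among these are given with and without them.

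Epithelial markers were high in both tissues. Villin (Vil1, an actin bundler of the brush border) was read at 8.16, 7.86, 8.08 and 7.94 in the ileum and 6.28, 6.29, 6.30 and 6.40 in the colon, and Epcam, a surface protein of all gut epithelium, at 5.57 to 5.75 and 5.07 to 5.35. Genes that define each region are given below: Fabp6 and Slc10a2 were higher on every ileum array, and Hoxb13 and Insl5 on every colon array. Correlations of all levels between arrays were 0.978 to 0.989 within the iKO ileum, 0.984 to 0.988 within the iKO colon and 0.929 to 0.954 between them.

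Of 19653 genes tested, 8557 (43.5%) differed between iKO colon and iKO ileum. In the colon 4739 (24.1%) were higher and 3818 (19.4%) lower, and these shares are the background for every list below. With a difference of at least 1 as well, 1627 (8.28%) were higher and 1250 (6.36%) lower. The median difference over all genes was 0.07. Colon and ileum arrays did not overlap for 8456 genes (43.0%). Of the 4739 genes higher in the colon, 914 were not well above background on any iKO ileum array. Of the 3818 lower, 19 were not well above background on any iKO colon array. The split of the calls moved with the scaling: 55.4% of them were higher in the colon as reported, 66.8% with the percentile taken over probes detected on all 14 aged arrays, 43.2% after normexp background correction and 34.6% with no filter on dim probes.

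**Figure D1:**
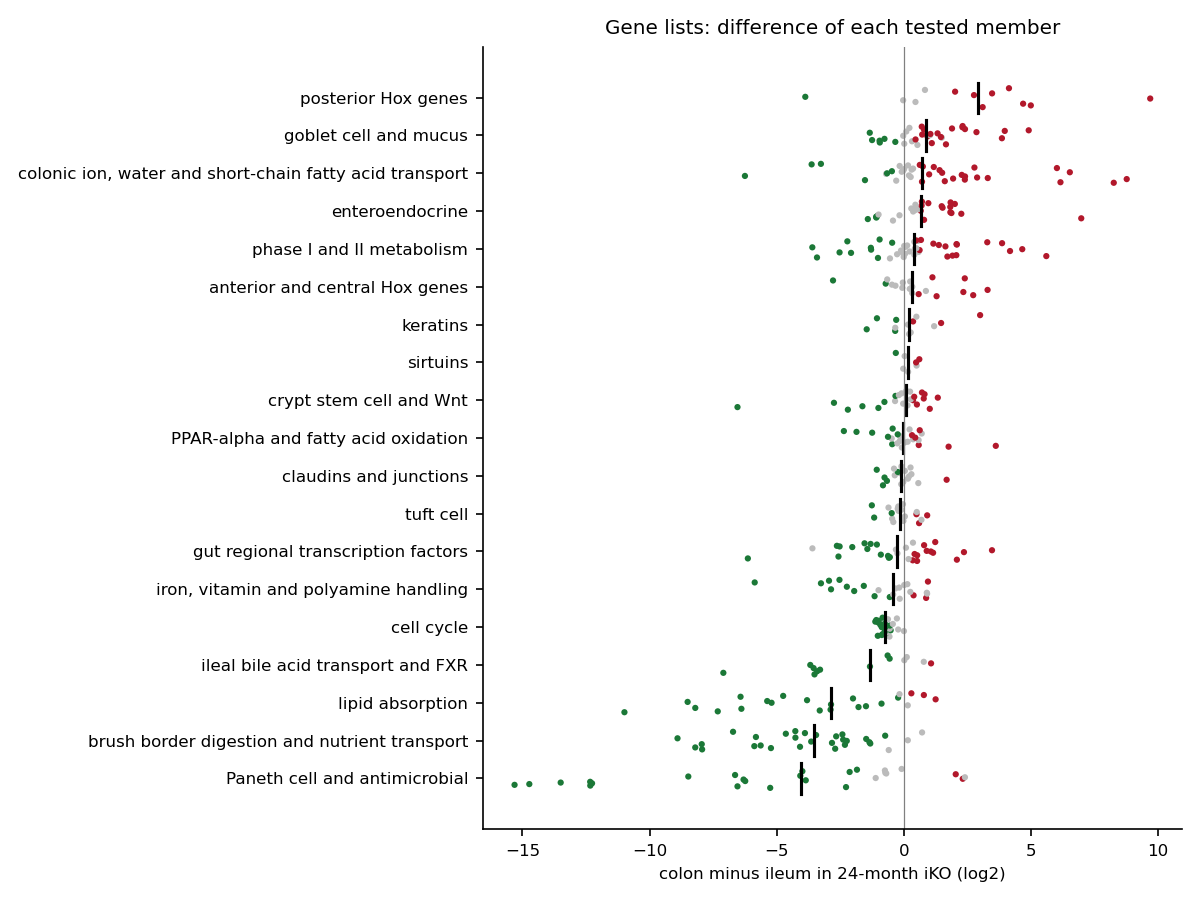
Colon minus ileum (log2, horizontal axis) in 24-month iKO mice for every tested member of 19 gene lists. Red points passed as higher in the colon, green points as lower, grey points did not pass, and the black bar is the list's median, from 2.94 for posterior Hox genes to -4.03 for Paneth cell and antimicrobial genes.

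Most posterior Hox genes that were tested were higher in the colon. Of 16 posterior Hox genes (paralogue groups 9 to 13), 15 were on the array and 12 were tested, and 8 of these were higher in the colon and 1 lower (median difference 2.94, against 0.07 over all genes). Hoxb13, the terminal member of the HoxB cluster, was read at 3.62, 4.08, 3.78 and 2.19 in the colon and at -6.86, -6.04, -5.57 and -6.65 in the ileum, where no array was above background. All colon arrays lay above all ileum arrays, array 4 lowest. The difference was 9.70 ± 0.40 (SE, adjusted p = 1.63e-08), at least 206-fold.

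Hoxd13, the terminal member of the HoxD cluster, was read at 0.66, 0.71, 1.52 and -1.80 in the colon and at -2.14, -1.23, -5.52 and -6.59 in the ileum. Colon array 4 lay below ileum array 2, so the tissues overlapped. The difference was 4.14 ± 1.16 (adjusted p = 0.0128), 5.02 without ileum array 2, 3.24 without ileum array 4 and 4.83 without colon array 4. Hoxa10 (5.0 ± 0.61, adjusted p = 5.59e-05, at least 13.4-fold), Hoxa11 (4.70 ± 0.70, adjusted p = 0.000246) and Hoxd10 (3.48 ± 0.44, adjusted p = 7.56e-05, at least 4.20-fold) were higher in the colon with no overlap. Hoxa13, the terminal member of the HoxA cluster, did not pass in iKO (difference 0.46 ± 0.48, adjusted p = 0.466). It was read at -3.97, -5.89, -5.64 and -6.13 in the colon and -5.15 to -6.52 in the ileum. No iKO ileum array was above background, so this difference rests on ileum levels that were not measured. In the Flox control colon the same gene stood at -2.34, -2.54 and -2.68, and its tissue difference there was 3.22 (adjusted p = 0.00115). The Flox difference, too, rests at least in part on ileum levels that were not measured. The test of iKO against Flox for the tissue difference of Hoxa13 gave an adjusted p of 0.557. The iKO value rested on the probe chosen: the other Hoxa13 probe differed by 1.30 and passed (adjusted p = 0.0133, the lowest of alternatives that reached 0.979). That probe too was above background on no iKO ileum array.

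Hoxc9 and Hoxc6 ran the other way. Hoxc9 was read at -1.02, -0.50, -0.13 and -0.78 in the ileum and at -5.25, -4.59, -4.62 and -3.46 in the colon. Every ileum array lay above every colon array, and Hoxc9 fell by 3.87 from ileum to colon (SE 0.33, adjusted p = 4.50e-06). Hoxc6 lay 6.87-fold lower in the colon (difference -2.78 ± 0.28, adjusted p = 1.54e-05), with ileum levels of -1.82 to -1.54 and colon levels of -5.18 to -3.74. Of 19 tested anterior and central Hox genes 7 were higher and 2 lower in the colon (median 0.33). Hoxa7 was higher by 3.30 ± 0.36 (9.85-fold, adjusted p = 2.40e-05) and Hoxa5 by 2.35 ± 0.23 (adjusted p = 1.29e-05). Hoxb7 stood at 1.81, 1.95 and 1.72 on 3 colon arrays, while colon array 4 at 2.82 lay within the ileum range of 2.65 to 2.92 (difference -0.71 ± 0.22, adjusted p = 0.0211), and the call was lost without ileum array 2 or without colon array 1, 2 or 3 (differences of -0.58 to -0.96 over all alternatives).

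**Figure D2:**
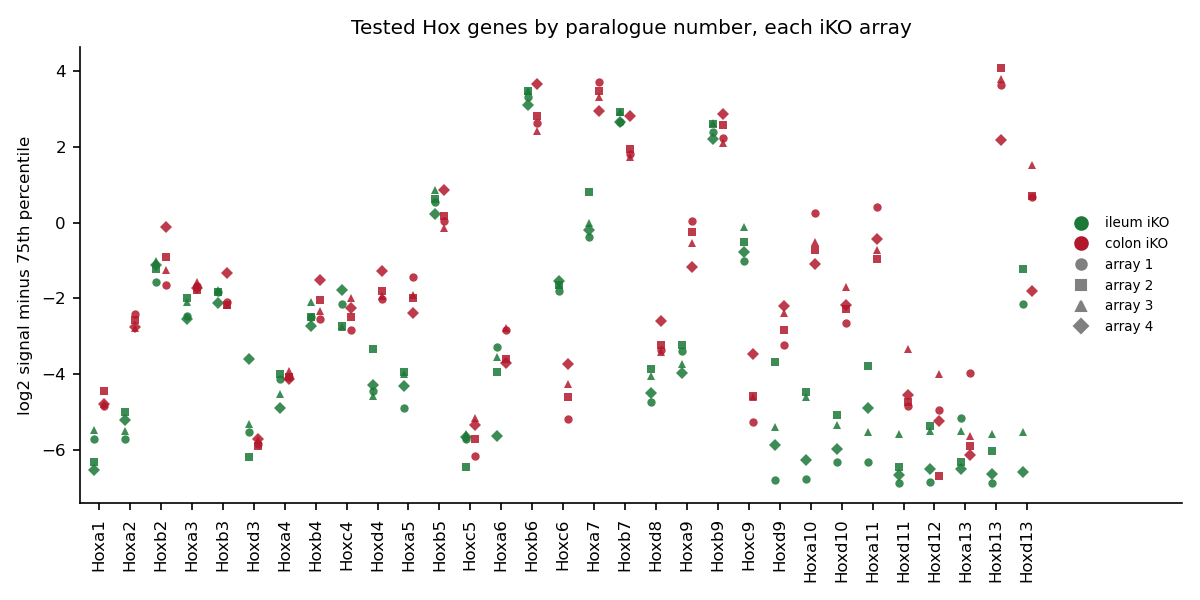
Log2 level minus the array's 75th percentile (vertical axis) of each tested Hox gene on the 4 ileum (green) and 4 colon (red) iKO arrays, ordered by paralogue number, with a shape for each array. Hoxb13 on the right reaches 2.19 to 4.08 in the colon and stays at -5.57 or less in the ileum, while Hoxc6 and Hoxc9 are higher in the ileum.

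Other transcription factors split by region. Of 31 tested regional factors 12 were higher and 13 lower in the colon (median -0.25). Gata5, a zinc-finger factor of the gut, was read at 0.75, 0.58, 0.87 and 0.70 in the ileum and at -5.54, -5.65, -5.28 and -5.14 in the colon. The groups were more than 5 log2 units apart, a difference of -6.13 ± 0.42 (70.1-fold, adjusted p = 9.42e-07). Hnf4g, a nuclear receptor of absorptive cells, was lower in the colon by 2.57 (difference -2.57 ± 0.20, adjusted p = 2.11e-06), and Hnf4a by less (-0.55 ± 0.11, adjusted p = 0.00218).

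Forkhead factors Foxa2 (2.37 ± 0.18, adjusted p = 2.10e-06) and Foxd2 (3.47 ± 0.53, adjusted p = 0.000295, at least 4.21-fold) and the crypt factor Sox9 (1.24 ± 0.13, adjusted p = 1.81e-05) were higher in the colon. The caudal factors, which specify intestine as a whole, were higher in the colon by little: Cdx1 by 0.53 ± 0.12 (adjusted p = 0.00474) and Cdx2 by 0.36 ± 0.13 (adjusted p = 0.0415), the call for Cdx2 being lost under 12 alternatives, among them leaving out ileum array 1, 3 or 4, or colon array 1, 3 or 4 (lowest difference 0.27). Isx, a homeobox gene that represses vitamin A uptake, stood at 5.05 to 5.27 in the ileum and at 3.90, 4.13, 3.87 and 5.18 in the colon. Colon array 4 lay within the ileum range, and the difference was -0.90 ± 0.28 (adjusted p = 0.0206). The Isx call was lost without colon array 1, 2 or 3. Osr2 likewise stood at 0.69 on colon array 4 and at -0.82 or less on the others, against 0.64 to 0.91 in the ileum, and its difference of -1.43 ± 0.41 (adjusted p = 0.0149) became -1.88 without that array.

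Bile acid recovery marked the ileum. Of 13 tested genes of ileal bile acid transport and of FXR, the bile acid receptor, 9 were lower and 1 higher in the colon (median -1.33). Fabp6, the ileal bile acid binding protein, was read at 3.83, 3.67, 3.64 and 3.79 in the ileum and at -3.72, -3.09, -4.16 and -2.48 in the colon. All 4 ileum arrays lay close together and far above the colon, a difference of -7.09 ± 0.33 (137-fold, adjusted p = 4.37e-08). Slc10a2, the apical bile acid transporter, was read at 4.61, 4.37, 4.85 and 4.99 in the ileum and 0.21, 1.85, 0.33 and 2.41 in the colon (difference -3.51 ± 0.45, 11.4-fold, adjusted p = 7.60e-05).

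The basolateral exporter subunits were lower in the colon by similar amounts, Slc51a with a difference of -3.41 ± 0.37 (adjusted p = 2.33e-05) and Slc51b with -3.29 ± 0.24 (adjusted p = 1.34e-06). The receptor gene itself, Nr1h4, was still read at 3.43 to 3.83 in the colon against 4.71 to 5.15 in the ileum (-1.33 ± 0.14, adjusted p = 1.70e-05). Fgf15, the hormone that FXR induces in the ileum, was dim: -1.40, -0.31, -4.33 and -2.62 in the ileum, above background on 3 arrays, and -6.18 to -4.92 in the colon, above background on 2 (difference -3.54 ± 0.71, adjusted p = 0.00178). Without ileum array 2 the Fgf15 difference was -2.93 and without array 3 it was -4.26. The efflux pumps went opposite ways, Abcc2 lower (-3.67 ± 0.64, adjusted p = 0.000744) and Abcc3 higher in the colon (1.08 ± 0.21, adjusted p = 0.00134).

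Genes of fat absorption were mostly ileal. Of 23 genes 18 were lower and 3 higher in the colon (median -2.88). Apoa1, the main protein of high-density lipoprotein, was read at 6.45, 4.99, 6.59 and 6.37 in the ileum and at -5.70, -4.92, -4.45 and -4.47 in the colon. Ileum array 2 was the lowest of its group but far above every colon array, and the difference was -10.99 ± 0.46 (2028-fold, adjusted p = 1.63e-08). Npc1l1, the cholesterol uptake transporter, was read at 4.86, 3.94, 4.91 and 4.73 in the ileum and at -4.06, -3.54, -4.65 and -3.32 in the colon (difference -8.50 ± 0.35, 362-fold, adjusted p = 1.57e-08).

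Mttp, which loads lipid onto chylomicrons, differed by -8.20 ± 0.21 (294-fold, adjusted p = 1.58e-10), and Soat2, which esterifies cholesterol, by -6.42 ± 0.26 (85.5-fold, adjusted p = 1.44e-08). Apob, the structural protein of chylomicrons, differed by less, -3.30 ± 0.23 (9.87-fold, adjusted p = 1.07e-06). Fabp2, the intestinal fatty acid binding protein, remained high in the colon at 6.68 to 7.37 against 8.33 to 8.71 in the ileum (-1.48 ± 0.23, 2.80-fold, adjusted p = 0.000300). Scarb1, a lipoprotein receptor, was higher in the colon (1.26 ± 0.20, adjusted p = 0.000403), with 0.00 to 0.17 against -1.35 to -1.07.

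The enzymes and carriers of the brush border were lower in the colon almost throughout: 27 of 30 tested members were lower, and the other 3 did not pass (median -3.54). Slc6a19, the main carrier of neutral amino acids, was read at 3.88, 3.31, 3.86 and 3.71 in the ileum and at -5.38, -5.10, -5.61 and -4.75 in the colon. The spread within each tissue was under 1 log2 unit and the difference -8.90 ± 0.23 (477-fold, adjusted p = 1.83e-10).

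Anpep, aminopeptidase N, differed by -8.20 ± 0.18 (294-fold, adjusted p = 6.06e-11). Sis, sucrase-isomaltase, was read at 7.06, 5.39, 6.10 and 6.56 in the ileum and -2.98, -1.59, -1.69 and -0.37 in the colon (difference -7.93 ± 0.68, 244-fold, adjusted p = 4.65e-06). Cubn, the receptor for vitamin B12 with intrinsic factor, differed by -6.71 ± 0.53 (105-fold, adjusted p = 2.39e-06). Smaller gaps were found for alkaline phosphatase Alpi (-3.64 ± 0.45, adjusted p = 6.54e-05) and for the sodium-glucose carrier Slc5a1 (-2.24 ± 0.20, adjusted p = 6.64e-06). The peptide carrier Slc15a1 overlapped between tissues (difference -1.47 ± 0.51, adjusted p = 0.0354), and without colon array 4 the difference was -1.0 and did not pass, nor did it without ileum array 1, 3 or 4 or colon array 2. Lactase, Lct, did not pass: it was read at -1.91, -3.52, -3.39 and -3.49 in the ileum, against -4.98 to -2.55 in the colon (difference -0.59 ± 0.52, adjusted p = 0.389).

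The promoters of 3 of these absorptive genes, and of 1 colon gene, are shown as examples of each region's genes. Each is the 250 bases before the transcription start in RefSeq on build GRCm38.p6, 5′ to 3′ on the gene's strand, at chr3:122894822-122895071 (plus strand) for Fabp2, chr3:72967864-72968113 (minus) for Sis, chr1:87101607-87101856 (minus) for Alpi and chr7:123462044-123462293 (plus) for Aqp8. Capitals mark matches, on either strand, to TTTATNG, the core bound by caudal factors, or to CAAAGTCCA, the element bound by HNF4.
Fabp2: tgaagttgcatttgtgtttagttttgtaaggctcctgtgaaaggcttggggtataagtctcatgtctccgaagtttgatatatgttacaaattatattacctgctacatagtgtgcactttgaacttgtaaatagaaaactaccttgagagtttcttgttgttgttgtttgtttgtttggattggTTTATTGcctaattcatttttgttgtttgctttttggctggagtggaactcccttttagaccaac
Sis: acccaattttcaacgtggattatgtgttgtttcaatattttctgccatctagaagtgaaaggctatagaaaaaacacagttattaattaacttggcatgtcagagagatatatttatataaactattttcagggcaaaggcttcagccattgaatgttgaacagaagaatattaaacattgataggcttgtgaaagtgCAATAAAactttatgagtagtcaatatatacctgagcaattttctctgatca
Alpi: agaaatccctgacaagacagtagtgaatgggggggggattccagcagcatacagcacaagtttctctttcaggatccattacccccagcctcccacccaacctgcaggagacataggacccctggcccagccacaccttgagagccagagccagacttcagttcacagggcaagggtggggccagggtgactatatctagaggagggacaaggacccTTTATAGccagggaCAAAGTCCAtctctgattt
Aqp8: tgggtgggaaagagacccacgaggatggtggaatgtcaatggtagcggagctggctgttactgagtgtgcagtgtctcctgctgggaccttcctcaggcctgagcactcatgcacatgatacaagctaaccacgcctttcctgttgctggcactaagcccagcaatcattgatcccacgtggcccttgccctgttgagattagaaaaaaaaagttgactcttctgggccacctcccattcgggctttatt

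Fabp2 held TTTATTG 65 to 59 bases before the start. Sis held the reverse complement CAATAAA at 52 to 46 bases, and Alpi held TTTATAG at 33 to 27 and CAAAGTCCA at 19 to 11, while neither motif was found in the Aqp8 window. Promoters were found for 12470 of the 19653 tested genes, and 7.52% of these held TTTATNG (9.81% of all 32851 promoters of the table, and 0.384% for CAAAGTCCA). Of the 143 genes with a promoter that were lower in the colon by at least 3, 20.3% held TTTATNG, and of the 84 that were higher by at least 3, 14.3% did. By list the counts were 7 of 17 for lipid absorption, 6 of 28 for the brush border and 10 of 22 for Paneth cell and antimicrobial genes. Goblet genes had 3 of 23, bile acid genes 1 of 11 and colonic transport 0 of 24. CAAAGTCCA was found in 3 of 28 brush border promoters. A match describes letters only and does not show binding.

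Salt and water transport marked the colon. Of 37 tested genes 20 were higher and 6 lower in the colon (median 0.72). Aqp8, a water channel of surface colonocytes, was read at 6.98, 6.82, 7.39 and 6.33 in the colon and at -3.99, 5.63, -4.97 and -4.26 in the ileum. Ileum array 2 lay just below the lowest colon array, whereas the other 3 ileum arrays were more than 10 units below, and 2 ileum arrays were above background. The difference was 8.77 ± 2.46 (adjusted p = 0.0129) and 11.28 without that array (adjusted p = 0.000899, from 4.66e-07 to 0.0379 over all alternatives). Car1, a carbonic anhydrase of the colon surface, was read at 8.23, 8.46, 8.57 and 8.70 in the colon, where the spot was saturated on 1 array, and at -2.24, 7.86, -2.64 and -2.07 in the ileum. Again ileum array 2 stood with the colon. The Car1 difference was 8.26 ± 2.57 (adjusted p = 0.0216), 10.81 without that array, and lost its call without ileum array 1, 3 or 4, when array 2 weighs more (adjusted p up to 0.0583, and from 4.20e-10 over all alternatives). Car2 followed the same pattern, with 2.89 on ileum array 2 and -1.64 to -1.14 on the others, and a difference of 6.17 ± 1.20 (adjusted p = 0.00148) or 7.26 without that array.

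Atp12a, the colonic proton-potassium pump, was read at 1.77, 1.84, 0.41 and 0.12 in the colon and was below background on all ileum arrays at -6.60 to -4.74 (difference 6.54 ± 0.67, at least 39.5-fold, adjusted p = 1.63e-05). Fxyd4, a regulator of the sodium pump, was read at 2.91, 3.81, 3.77 and -1.78 in the colon and -6.81 to -5.32 in the ileum. Colon array 4 stood well below its group, and the difference of 8.36 ± 1.08 (at least 87.2-fold, adjusted p = 8.75e-05) became 9.68 without it. Best2, a chloride and bicarbonate channel of goblet cells, was higher by 6.03 ± 0.70 (adjusted p = 3.83e-05), with 2 of 4 ileum arrays above background.

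The subunits of the epithelial sodium channel, through which aldosterone drives salt uptake in the distal colon, all passed. Scnn1a was read at 3.14 to 3.44 in the colon and 1.14 to 1.57 in the ileum (1.94 ± 0.14, adjusted p = 1.15e-06). Scnn1b (3.31 ± 0.52, at least 2.41-fold, adjusted p = 0.000359) and Scnn1g (2.89 ± 0.95, at least 1.95-fold, adjusted p = 0.0279) were below background on all ileum arrays. Colon array 4 read Scnn1g at -5.70, within the ileum range, and without it the difference was 3.69. The Scnn1g call was lost without ileum array 1, 2 or 4 or colon array 2 or 3, and after normexp correction (1.11). Slc26a3, the chloride-bicarbonate exchanger (2.41 ± 0.39, adjusted p = 0.000453), and Slc9a3, the sodium-proton exchanger (2.28 ± 0.51, adjusted p = 0.00342), were higher too. The mineralocorticoid receptor Nr3c2 (0.75 ± 0.20, adjusted p = 0.00961, but 0.35 and not passing after normexp correction) and Hsd11b2, which shields it from glucocorticoids (1.18 ± 0.40, adjusted p = 0.0303), were higher by less, and the call for Hsd11b2 was lost without ileum array 1 or 4 or colon array 2, 3 or 4.

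Against the list's name, Slc26a6, an anion exchanger, was read at 4.08, 3.07, 4.07 and 4.14 in the ileum, against -2.49 to -2.26 in the colon (-6.25 ± 0.26, 75.9-fold, adjusted p = 1.65e-08). The secreted peptides that activate guanylate cyclase C also parted: uroguanylin (Guca2b) was lower in the colon by 3.62 (difference -3.62 ± 0.40, adjusted p = 2.76e-05), and guanylin (Guca2a) was higher by 0.63 ± 0.11 (adjusted p = 0.000759). The short-chain fatty acid carrier Slc5a8 was slightly lower (-0.65 ± 0.23, adjusted p = 0.0365), a call lost without ileum array 1, 3 or 4 or colon array 3 or 4.

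**Figure D3:**
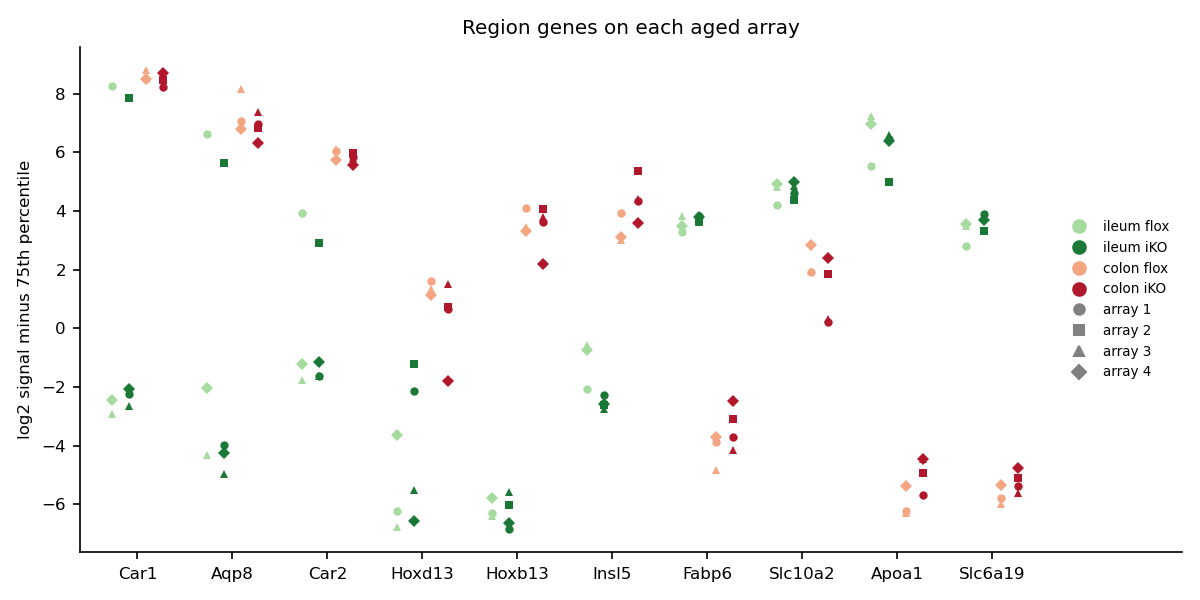
Log2 level minus the array's 75th percentile (vertical axis) of 10 genes on each aged array, by tissue and genotype, with a shape for each array. For Car1, Aqp8 and Car2, iKO ileum array 2 (7.86, 5.63 and 2.89) and Flox ileum array 1 (8.26, 6.63 and 3.92) sit toward the colon, but not for Hoxb13 or Insl5. The iKO colon mean of Car2 was 5.79. Hoxd13 on iKO ileum array 2 (-1.23) also lies nearer the iKO colon mean (0.27) than the mean of the other iKO ileum arrays (-4.75).

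Mucus and goblet cell genes were mostly higher in the colon, 18 of 32 tested, with 6 lower (median 0.87). Muc2, the gel-forming mucin, was read at 7.67, 8.12, 7.83 and 8.14 in the colon and 6.26, 6.31, 6.55 and 5.99 in the ileum. The tissues did not overlap, and the difference was 1.66 ± 0.22 (3.17-fold, adjusted p = 8.97e-05). St6galnac6, a sialyltransferase, was read at 4.81 to 5.07 in the colon and -1.17, 1.87, -0.16 and -0.59 in the ileum (4.92 ± 0.71, 30.2-fold, adjusted p = 0.000203), and the difference was 5.55 without ileum array 2. Spdef, the factor that matures goblet cells (1.46 ± 0.29, adjusted p = 0.00177), Klk1, a kallikrein (2.41 ± 0.22, adjusted p = 6.30e-06), and the pentraxin Mptx1 (2.32 ± 0.28, adjusted p = 5.34e-05) were higher.

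Retnlb, an antibacterial protein of goblet cells that varies with the flora, was read at 8.14, 4.81, 7.46 and 5.99 in the colon and at 0.51, 5.19, 2.86 and 2.38 in the ileum. Ileum array 2 lay above colon array 2. The difference of 3.86 ± 1.40 (adjusted p = 0.0421) was 4.68 without ileum array 2, 3.12 without ileum array 1 and 4.46 without colon array 2, and the call was lost without ileum array 1, 3 or 4 or colon array 1, 3 or 4. Trefoil factor Tff3, another goblet cell product, was lower in the colon (-0.76 ± 0.11, adjusted p = 0.000213), at 7.33 to 7.58 against 8.07 to 8.31.

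Paneth cell products gave the largest differences of all. Of 34 listed Paneth cell and antimicrobial genes, 29 were on the array and 26 were tested. On this wider list 18 were lower and 2 higher in the colon (median -4.03). Defa22, an alpha-defensin, was read at 7.58, 7.10, 7.38 and 7.39 in the ileum and at -8.49, -7.26, -5.41 and -8.30 in the colon, where 1 array was above background. Nothing overlapped and the difference was -14.73 ± 0.54 (adjusted p = 5.55e-09), or -15.38 without colon array 3, the one above background. The colon levels on the other 3 arrays are not measured, so no fold is given. Defa21 was saturated on all 4 ileum arrays, at 8.92 to 9.15, and stood at -7.04 to -5.66 in the colon (difference -15.31 ± 0.34, adjusted p = 6.06e-11). Defa29, Defa31, Defa20 and Defa23 differed by -12.26 to -13.49 (Defa23 by -11.62 to -12.96 with 1 colon array left out), with Defa20 saturated on all ileum arrays (at least 5148-fold). The alpha-defensins are near-identical copies, so a probe may read several of them, and their order is uncertain.

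Mmp7, the protease that activates them, was read at 5.30, 5.30, 5.36 and 5.43 in the ileum and -0.75, -0.99, -2.21 and 0.41 in the colon (difference -6.23 ± 0.47, 75.3-fold, adjusted p = 1.98e-06). Lysozyme, Lyz1, was read at 8.13 to 8.37 in the ileum and still at 2.69 to 3.48 in the colon (-5.25 ± 0.18, 38.1-fold, adjusted p = 2.14e-09). Secreted phospholipase Pla2g2a differed by -3.85 ± 0.36 (adjusted p = 8.37e-06). Itln1, an intelectin, was tight in the ileum at 6.93 to 7.34 but ranged in the colon over 4.40, -1.82, 1.27 and -0.50 (-6.30 ± 1.01, adjusted p = 0.000413), with -7.49 without array 1 and -5.42 without array 2.

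The Reg3 lectins, secreted against bacteria, were also uneven in the colon. Reg3g was read at 8.38, 8.58, 8.87 and 8.75 in the ileum and at 1.93, 5.52, -1.95 and 2.55 in the colon, highest on array 2 and lowest on array 3 (difference -6.63 ± 1.14, adjusted p = 0.000630). It was -7.80 without array 2 and -5.31 without array 3. Reg3b kept that order in the colon, at 4.85, 7.63, 0.02 and 5.56 against 8.28 to 8.77 in the ileum (-4.07 ± 1.19, adjusted p = 0.0158), and differed by -5.11 and -2.57 without those arrays. Reg3a was lower by 8.47 (difference -8.47 ± 1.07, adjusted p = 7.19e-05), which was -7.33 without colon array 3 and -9.14 without array 2. Reg4, made by secretory cells of the colon, was higher there by 2.05 ± 0.73 (adjusted p = 0.0403), with 5.42 on ileum array 2 against 5.01 on colon array 1. Without ileum array 2 the difference was 2.63. The Reg4 call was lost without any one of ileum arrays 1, 3 and 4 or colon arrays 2, 3 and 4, and without 1 Flox array of each tissue. Reg1 did not pass (-1.10 ± 1.21, adjusted p = 0.492), being at 2.05 on colon array 4 and at -2.70 or less on the others. Without that array the Reg1 difference was -2.64 (adjusted p = 0.00530, the lowest of its alternatives, which reached 0.875).

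Hormone cells differed by hormone. Of 26 tested enteroendocrine genes 14 were higher and 4 lower in the colon (median 0.69), counts that were 9 and 5 after normexp correction. Insl5, a peptide of colonic L cells, was read at 4.34, 5.36, 4.41 and 3.60 in the colon and at -2.29, -2.62, -2.74 and -2.58 in the ileum. Ileum array 2 was among the low ones here, and the difference was 6.99 ± 0.39 (127-fold, adjusted p = 1.84e-07). Peptide YY (Pyy), from the same cells, was higher by 0.80 ± 0.15 (adjusted p = 0.00135). The granule protein chromogranin A, Chga (1.88 ± 0.24, adjusted p = 7.18e-05), and Tph1, an enzyme of serotonin synthesis (2.27 ± 0.32, adjusted p = 0.000172), were higher in the colon with no overlap. Hormones of the small intestine were lower: cholecystokinin, Cck (-1.08 ± 0.26, adjusted p = 0.00557), secretin, Sct (-1.08 ± 0.24, adjusted p = 0.00325), and neurotensin, Nts (-1.41 ± 0.39, adjusted p = 0.0125).

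Crypt genes did not move as 1 list. Of 23 tested stem cell and Wnt genes 8 were higher and 7 lower (median 0.10). Olfm4, which marks small intestinal stem cells in the mouse, was read at -0.90, -1.73, -0.86 and -1.02 in the ileum and was below background on all colon arrays at -8.64 to -6.62 (difference -6.54 ± 0.44, at least 36.4-fold, adjusted p = 8.89e-07). Lgr5, a stem cell receptor of both regions, was read at -0.25, -0.31, 0.18 and 0.01 in the ileum, against -2.49 to -2.11 in the colon (-2.20 ± 0.17, 4.58-fold, adjusted p = 2.14e-06). Axin2, a Wnt target, was lower (-1.62 ± 0.24, adjusted p = 0.000216), while Ascl2 (1.03 ± 0.27, adjusted p = 0.00891) and Prom1 (1.34 ± 0.30, adjusted p = 0.00384) were higher. Of 25 cell cycle genes 17 were lower and the other 8 did not pass (median -0.73), among the lower Plk1 (-1.12 ± 0.26, adjusted p = 0.00445) and Top2a (-1.02 ± 0.25, adjusted p = 0.00620). Mki67 overlapped (-0.56 ± 0.25, adjusted p = 0.0860). The count of lower genes was 10 of 25 without ileum array 2, 8 without both ileum arrays that stood apart and 5 without all 3 arrays that did. Without all 3, 3224 of 19764 tested genes were lower, a share near that of the list, and the list's median difference was -0.61. Of 18 tuft cell genes 3 were higher and 3 lower.

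Enzymes that modify foreign and endogenous chemicals were higher in the colon for 16 of 42 tested and lower for 10 (median 0.42). Adh1, an alcohol dehydrogenase, was read at 6.32, 6.56, 6.42 and 5.23 in the colon and 1.58, 1.56, 1.40 and 1.33 in the ileum. The groups were clear of each other, and the difference was 4.66 ± 0.24 (25.4-fold, adjusted p = 9.25e-08). Cyp2c55, a cytochrome of the colon, was read at 5.59 to 6.95 there and at 0.84, 4.16, -0.75 and -1.66 in the ileum (5.61 ± 1.03, adjusted p = 0.00102), and the difference was 6.78 without ileum array 2 and 4.84 without array 4. Sulfotransferase Sult1a1 (3.87 ± 0.78, adjusted p = 0.00181) and carboxylesterase Ces1g (4.18 ± 0.68, adjusted p = 0.000462) read highest in the ileum on that array too, and differed by 4.56 and 4.86 without it. Cyp3a25 was higher in the ileum (-3.41 ± 0.93, adjusted p = 0.0112), and Cyp3a11 did not pass (-0.54 ± 0.78, adjusted p = 0.604).

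The first steps of the urea cycle, by which the small intestine makes citrulline, were ileal. Cps1 was read at 3.05, 3.27, 3.09 and 3.16 in the ileum and -3.06, -2.47, -2.58 and -2.77 in the colon (-5.86 ± 0.60, 58.1-fold, adjusted p = 1.69e-05). Otc was lower in the colon by 3.25 (difference -3.25 ± 0.23, adjusted p = 1.15e-06). Rbp2, the cellular retinol carrier, differed by -1.95 ± 0.42 (adjusted p = 0.00279). On that list of iron, vitamin and polyamine handling 10 of 23 were lower and 3 higher. Of 24 genes of fatty acid oxidation 6 were higher and 7 lower, among the lower Acsl5, a fatty acyl-CoA ligase (-2.35 ± 0.14, adjusted p = 2.72e-07). Pparg, a fat-sensing nuclear receptor, was higher in the colon (1.77 ± 0.39, adjusted p = 0.00325).

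Among junction genes, 5 of 18 were lower and 1 was higher. Claudin 8 (Cldn8), which seals against sodium leak, was read at 2.96, 2.77, 2.41 and 2.12 in the colon and 0.44, 1.05, 1.24 and 0.77 in the ileum (1.69 ± 0.23, adjusted p = 0.000118). The pore-forming claudins Cldn2 (-0.82 ± 0.21, adjusted p = 0.00755) and Cldn15 (-0.75 ± 0.20, adjusted p = 0.00993) were lower. Keratin 20 (Krt20), of differentiated surface cells, was lower by 1.05 (difference -1.05 ± 0.10, adjusted p = 7.17e-06). Of the other sirtuins, Sirt5 (0.61 ± 0.08, adjusted p = 0.000111) and Sirt4 (0.49 ± 0.10, adjusted p = 0.00164) were higher in the colon. Sirt7 was lower (-0.31 ± 0.10, adjusted p = 0.0199), a call lost without ileum array 1 or 3 or colon array 3 and under 2 of the scalings, and Sirt3 did not pass (0.51 ± 0.21, adjusted p = 0.0706).

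Among the 12 largest differences each way outside the lists above, Sycn, a granule protein described from pancreas, was read at 7.50, 7.56, 7.63 and 6.83 in the colon and at -0.19, 1.49, 0.27 and -0.19 in the ileum (7.04 ± 0.45, 131-fold, adjusted p = 5.83e-07). It was high on every colon array, whereas Cela3b and Cpa1 were high on array 4 alone. Transglutaminase Tgm3 (7.43 ± 0.50, at least 82.3-fold, adjusted p = 8.05e-07, and 8.02 without colon array 4), the matrix protein Ccn3 (7.45 ± 0.46, at least 54.5-fold, adjusted p = 4.38e-07), Nxpe2 (7.27 ± 0.43, adjusted p = 3.09e-07, 2 ileum arrays above background) and the cytochrome Cyp2f2 (6.42 ± 0.58, adjusted p = 6.84e-06, 1 ileum array above background) were the others higher in the colon. Smlr1 was lower (-8.25 ± 0.49, adjusted p = 3.09e-07). Prm1, a sperm protamine, was lower by 12.01 on the brightest of its 3 probes (8.25, 7.86, 8.16 and 8.11 in the ileum, -4.06 to -3.78 in the colon), but a second probe differed by -0.52 and did not pass (adjusted p = 0.315), so the Prm1 probes disagree.

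Markers of other cells moved with these results, and their part in them was not tested. T cell and intraepithelial lymphocyte markers were lower in the colon for 11 of 14 (median -2.58), with a summed linear level of 3.37 to 5.12 times the 75th percentile in the colon and 26.7 to 86.0 in the ileum. Gzma, a granzyme of killer cells, was read at 4.08, 3.50, 2.26 and 3.72 in the ileum and -4.23, -2.55, -4.11 and -1.68 in the colon (-6.53 ± 0.56, 92.4-fold, adjusted p = 4.50e-06), and Cd8a was lower by 4.33 (difference -4.33 ± 0.52, adjusted p = 5.05e-05). MHC class II genes, which present antigen and which gut epithelium can also make, were lower for 7 of 8 (median -3.53), with summed levels of 15.2 to 35.9 and 229 to 371. H2-Aa was read at 4.68, 3.67, 4.13 and 4.10 in the ileum and 0.78, -0.24, 0.23 and -0.01 in the colon (-3.96 ± 0.30, adjusted p = 2.01e-06), and Cd74, the invariant chain, differed by -3.79 ± 0.31 (adjusted p = 3.49e-06). Macrophage markers were lower for 11 of 14 and higher for 1 (median -1.02), C1qa by -1.06 ± 0.21 (adjusted p = 0.00174) and Csf1r by -1.16 ± 0.18 (adjusted p = 0.000317).

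Muscle wall markers were higher in the colon, 10 of 14 for smooth muscle (median 0.77), with summed levels of 379 to 627 against 225 to 343. Myh11, smooth muscle myosin, differed by 1.07 ± 0.19 (adjusted p = 0.000912) and Cnn1, calponin, by 1.16 ± 0.20 (adjusted p = 0.000610). All 3 markers of the pacemaker cells of Cajal were higher, Ano1 at 1.65, 1.86, 2.11 and 1.18 in the colon against -1.52, -0.75, -0.95 and -1.11 in the ileum (2.78 ± 0.21, 6.88-fold, adjusted p = 2.14e-06) and Kit by 1.20 ± 0.18 (adjusted p = 0.000228). Epithelial markers were lower for 7 of 10 and higher for 1 (median -0.39), with summed levels of 1596 to 1707 against 2142 to 2329. B cell levels overlapped, at 128 to 176 in the colon and 68.0 to 174 in the ileum. Mast cell proteases parted, the mucosal Mcpt1 lower (-2.59 ± 0.62, adjusted p = 0.00550) and the connective tissue Cma1 higher (2.59 ± 0.55, adjusted p = 0.00261). Pancreatic markers summed to 7.19 to 41.6 in the colon and 1.07 to 2.25 in the ileum, so that every colon array lay above every ileum array. Cela1, an elastase on that list, was read at 2.76, 3.41, 3.19 and 2.58 in the colon and -0.71 to 0.76 in the ileum (3.15 ± 0.47, adjusted p = 0.000229), while Cela3b did not pass (3.80 ± 1.55, adjusted p = 0.0659) and differed by 1.79 without colon array 4.

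**Figure D4:**
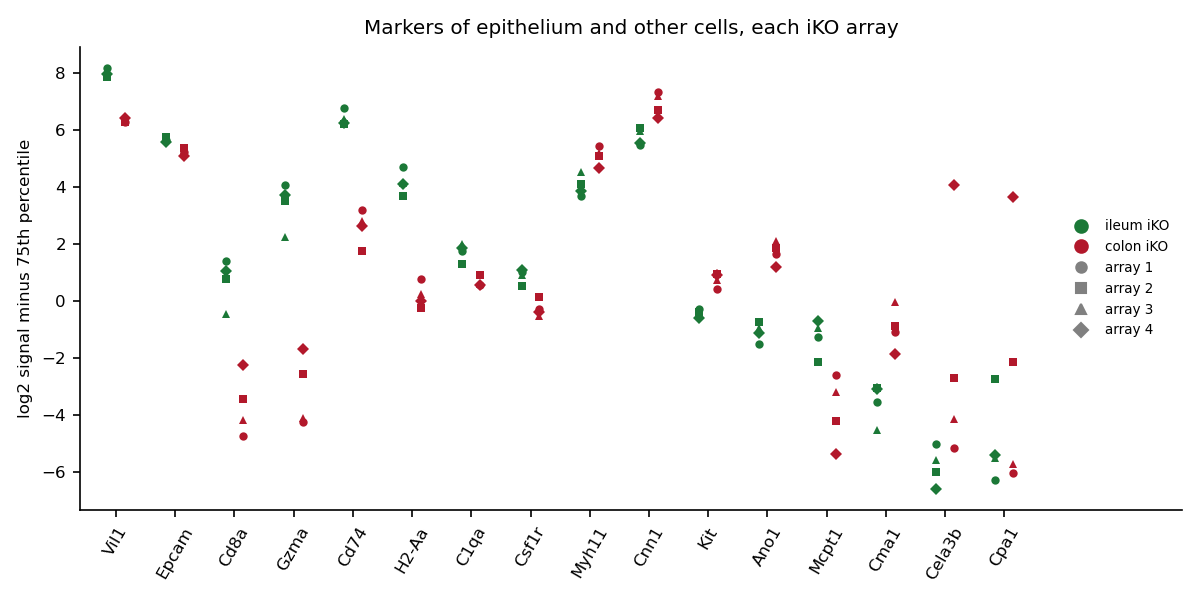
Log2 level minus the array's 75th percentile (vertical axis) of markers of epithelium, lymphocytes, antigen presentation, macrophages, muscle, pacemaker cells, mast cells and pancreas on the 4 ileum (green) and 4 colon (red) iKO arrays. Gzma and H2-Aa are higher on every ileum array, Ano1 on every colon array, and Cela3b and Cpa1 reach 4.05 and 3.63 on colon array 4 alone.

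The same contrast in Flox control mice called 6410 genes (32.6%), with fewer arrays: 3657 (18.6%) were higher in the colon and 2753 (14%) lower, and with a difference of at least 1 the shares were 7.66% and 6.01%. It shares no array with the iKO contrast but shares its array runs. Of the 8557 genes called in iKO, 5259 (61.5%) were called in Flox in the same direction, 82.0% of the Flox calls, and 7 were called in opposite directions. Across the 19653 genes, which are not independent replicates, the differences correlated at Pearson's r of 0.867 and Spearman's rho of 0.779. Hoxb13 differed by 9.70 in iKO and 9.78 in Flox, Slc6a19 by -8.90 and -8.98, Fabp6 by -7.09 and -7.67, Defa22 by -14.73 and -14.18, and Insl5 by 6.99 and 4.47. By list, the brush border had 26 of 30 lower in Flox (27 in iKO) and lipid absorption 18 of 23 (18). Paneth cell and antimicrobial genes had 18 of 26 lower (18), and posterior Hox genes 8 of 12 higher (8). Other lists had fewer calls in Flox: 6 enteroendocrine genes were higher (14 in iKO), 7 cell cycle genes lower (17) and 3 smooth muscle genes higher (10), and whether these counts differ between genotypes was not tested.

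A test of whether the tissue difference itself differed between genotypes called 7 genes (0.0356%) of 19653, 5 with a larger value in iKO (0.0254%, also at a size of at least 1) and 2 with a smaller one (0.0102%), with 1171 at an unadjusted p under 0.05, and 4 of the 7 met the rule for named genes. None of the 7 was on the lipid absorption list, but 10 of its 23 tested members had an unadjusted p under 0.05 in this test. These went both ways, among them Abcg5 (difference of the differences -2.10, unadjusted p = 0.00152) and Fabp1 (1.71, unadjusted p = 0.0169). Insl5 did not pass (adjusted p = 0.446). In the colon, genotype coincides with the position of the array on its slide, so both cannot be told apart there. Prom2, a prominin of epithelial membranes, was read at -0.15, 0.14, -0.20 and -0.32 in iKO ileum and 1.94, 2.41, 2.05 and 2.08 in iKO colon, while no Flox array was above background. The tissues differed by 2.26 ± 0.26 in iKO (adjusted p = 3.41e-05). The genotype test passed for Prom2 (adjusted p = 0.00128), but it compares with Flox levels below background on array runs whose floors differ, so its size is not a measurement. A second Prom2 probe did not pass for tissue in iKO (0.79). Mt1, a metallothionein that binds zinc, was read at 7.79, 7.46, 7.80 and 7.55 in iKO ileum and 5.97, 6.04, 6.09 and 5.88 in iKO colon, and at 3.17 to 3.38 and 3.13 to 4.07 in Flox. All iKO arrays lay above all Flox arrays, and the tissues differed by -1.66 ± 0.17 in iKO and by 0.28 in Flox, where the test did not pass (adjusted p = 0.291 in Flox, difference of the differences -1.93 ± 0.25, adjusted p = 0.0250).

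Tnni2, a troponin of fast muscle, was higher in colon than ileum in iKO by 2.22 and differed by -0.52 in Flox (difference of the differences 2.74 ± 0.31, adjusted p = 0.00875). Rnf225 was above background on the iKO colon arrays alone, so the size of its genotype difference is likewise not a measurement, although the test passed (adjusted p = 0.0308). Genes next in line that did not pass were Rab38 (adjusted p = 0.137) and Upk1a (0.196) on one side and St8sia5 (0.0834), Ttc16 (0.196), Npsr1 (0.210) and Pllp (0.419) on the other. St8sia5, a sialyltransferase of gangliosides, stood at 0.84, 1.45 and 1.28 in Flox colon and at -2.21, -2.84, -1.21 and -3.18 in iKO colon. All 4 calls were lost with the replicate number as a block (for Prom2 and Tnni2 adjusted p = 0.0648, the highest of their alternatives, and from 3.59e-06 and 0.000249 at the lowest). The calls for Mt1 and Rnf225 were lost under many other alternatives, Mt1 for instance without ileum iKO array 1, 3 or 4, any one ileum Flox array or any one iKO colon array, at differences of -1.69 to -2.16.

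Genes that an earlier analysis of these same arrays called between iKO and Flox ileum at 24 months were also set side by side across tissues. Of 13, 7 were higher in the iKO colon than in the iKO ileum and 1 lower, and this list is not independent of these samples. Sult1c2, a sulfotransferase, was read at 2.98, 3.50, 3.86 and 4.40 in iKO colon and -0.21, 1.01, 0.32 and 0.46 in iKO ileum (3.29 ± 0.33, 9.77-fold, adjusted p = 1.39e-05), and at 4.57 to 5.11 and 1.88 to 2.75 in Flox. Il17re, a chain of the receptor for interleukin 17C, was read at 2.69 to 2.92 in iKO colon and 1.38 to 1.75 in iKO ileum (1.18 ± 0.11, adjusted p = 7.79e-06). Bnipl was higher in the colon in both genotypes, by 2.19 ± 0.25 in iKO (adjusted p = 3.19e-05) and by 3.81 in Flox.

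**Figure D5:**
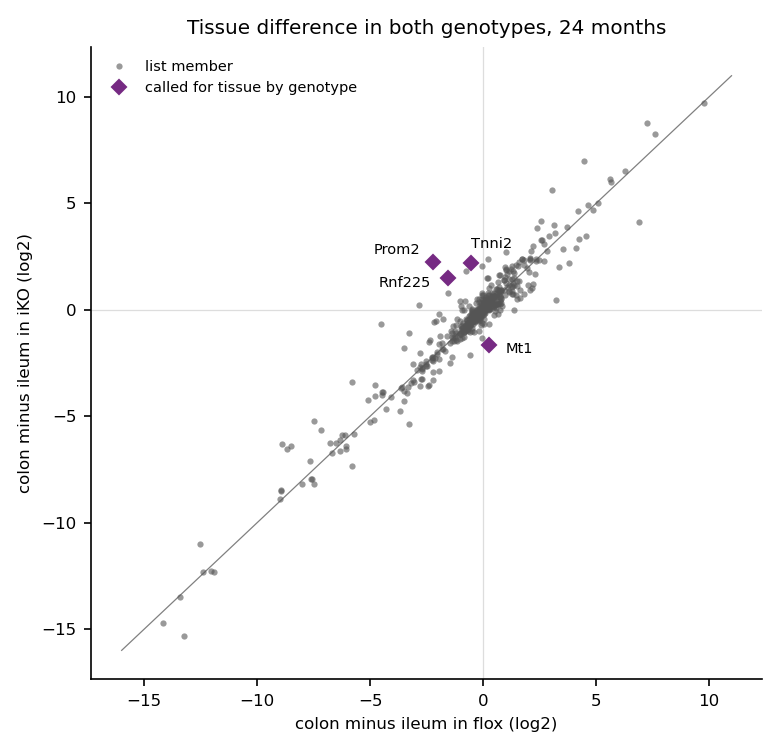
Colon minus ileum (log2) in iKO (vertical axis) against the same in Flox (horizontal axis), with the line of equal values. Grey points are the tested members of all gene lists except the lists of cell type markers. Purple points are the 4 named genes whose tissue difference differed between genotypes. Most members lie near the line, and Prom2, Tnni2 and Rnf225 lie above it and Mt1 below.

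The iKO ileum of young mice gave a last view of the regional genes, from the same array run as the old ileum. Hoxb13 stood at -6.54 to -6.18, Fabp6 at 3.72 to 4.00, Slc6a19 at 3.58 to 4.51 and Defa22 at 7.64 to 8.14 on its 4 arrays, beside 24-month iKO means ± SD (n = 4) of -6.28 ± 0.59, 3.73 ± 0.09, 3.69 ± 0.27 and 7.36 ± 0.20. Of the colon genes, Aqp8 stood at -4.78 to -2.78 there and Car1 at -2.70 to 1.34. All these values lay below those of old iKO ileum array 2 (5.63 and 7.86). The highest lay above the other 3 old iKO ileum arrays, which read Aqp8 at -4.97 to -3.99 and Car1 at -2.64 to -2.07.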

How the data were processed

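The deposited spot intensities of 22 one-colour Agilent arrays were used. Per the file headers, Feature Extraction 9.5.3.1 detrended the signal of each array, and the array annotation is build mm7. Agilent Feature Extraction 9.5 stands in the submitters' processing notes. Values were not scaled between arrays by the authors, and the deposited table of the series held the same intensities.

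Here log2 of each processed intensity was centred on its array's 75th percentile after control spots and outlier flags were left out. The brightest probe stood for a gene, which entered the test if at least 1 of the 4 aged groups had that probe well above background throughout. All 14 aged arrays entered 1 fit in limma 3.58.1 (R 4.3.3), with Benjamini-Hochberg adjustment at 0.05. Errors are standard errors of the fit. The labels do not say whether replicates are separate animals, so p-values measure the spread between these samples. The number of arrays limits the precision.

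Members and gene lists were chosen with earlier results of these data known. Named genes are Sirt1, the 12 largest differences each way among passing genes above background throughout the brighter group, for the genotype test the 5 largest each way or, short of 5 passing, the smallest p, members of the role lists, and cell type markers. For 22951 of 41174 probes the RefSeq accession gave the gene, for 6659 a current symbol, for 3109 an older one, and for 8455 the array's own name stayed. Some list members that were measured and counted are not reported by name here. The fit was tested on simulated data. Same-numbered arrays correlated at -0.03 to 0.12 over 7 pairs, with 1 pair over 0.1. So few arrays from different tissues cannot exclude a pairing, and both aged Flox groups hold the numbers 1, 3 and 4. Whether equal numbers mark the same mouse is therefore not known, and the main fit used no pairing. Alternatives covered scaling, background, filters, probes, arrays and blocks.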

Additional observations from a re-analysis of the deposited data

Results flagged for a closer look

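Levels that stood far from the other 3 arrays of their group were found in 19 of the 332 groups of named genes. Groups with a missing value or with no array above background could not be flagged. Fewer than 332 were therefore examined, and chance gives about 1 in 20 of those examined. Of the 19 levels, 12 were on ileum iKO array 2. That array was higher than the other iKO ileum arrays for Aqp8 (5.63), Car1 (7.86), Car2 (2.89), Spdef (2.54), Sult1a1 (2.75) and Ces1g (0.77). It was lower for Apoa1 (4.99), Alpi (1.04), Slc26a6 (3.07), Nts (3.87), Nos2 (-2.41) and Npsr1 (-5.02). Npsr1 was above background on only 1 iKO ileum array. Its value on array 2 lies below the lowest level that counted as well above background there (-4.13), so it is not a measured level. Colon iKO array 4 was low for Fxyd4 (-1.78), Tgm3 (0.44) and Sycn (6.83). Ileum iKO array 1 was high for Lct (-1.91) and low for Fut2 (-3.98). Ileum iKO array 4 was low for Il17re (1.38), and colon iKO array 2 was high for C1qa (0.93).

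The difference between colon and ileum differed between iKO and Flox, by the interaction test in limma, for Prom2 (4.48), Rnf225 (3.05), Tnni2 (2.74) and Mt1 (-1.93). Prom2 was below background on all Flox arrays and Rnf225 on all arrays but those of iKO colon, on runs whose floors differ, so their values are not measured sizes.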

How the results depend on the processing

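Of 154 named genes called between the iKO tissues, 125 kept their direction and call under every alternative in which they were tested. An alternative that did not test a gene, such as the stricter filter for genes dim on any aged array, did not count against it. For genes named from the genotype test, that test had to keep its direction and call as well. Of the genes named, Hoxa13, which did not pass, changed sign: its difference was -0.0157 without colon iKO array 1. Without ileum Flox array 3 it was 1.30, because the other Hoxa13 probe was then the brightest and stood for the gene. With one array left out at a time, genes higher in the colon numbered 3861 to 4896, lower 3294 to 3905, Flox calls 4846 to 6513 and genotype-by-tissue calls 3 to 11. With no filter on dim probes, 8786 genes were lower in the iKO colon, 10871 were called in Flox and 4 for genotype by tissue, and a stricter filter left 2 of the last. A replicate block, for numbers that may or may not pair the tissues, called 4178 genes higher and 3432 lower in iKO and 5316 in Flox. Under that block limma called 0 genes for genotype by tissue, with 1157 at an unadjusted p under 0.05. The percentile over detected probes shifted the median gene by 0.10 and gave 6001 higher and 2989 lower, normexp background correction 3456 and 4549, and median scaling 3689 and 4079. After seeing the data, leaving out ileum iKO array 2 and ileum Flox array 1 together was added (4414 higher, 3502 lower), and then colon iKO array 4 as well (4008 and 3224). Signal over background limits the ileum: genes not well above background on any of its arrays had only a bound, and differences of genes above background on some of them rest in part on unmeasured levels. No alternative separates tissue from array run.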
